A study of Rattus norvegicus with 20 samples.

Results

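The genes for the proteins of the mitochondrial ribosome were examined in RNA-seq of the rat supraoptic nucleus (SON), the hypothalamic nucleus whose magnocellular neurones make vasopressin and oxytocin. Members were all genes whose symbol begins with Mrpl or Mrps followed by a digit, which gave 76 of the 32402 genes in the tables. By symbol, 46 belong to the large and 30 to the small subunit. A mean normalized count of at least 10 was reached by 70 of them in each comparison, 41 of the large and 29 of the small subunit. The other 6 were Mrpl1, Mrpl30, both genes listed as Mrpl36, Mrpl53 and Mrps21l, whose means were between 0 and 7.37, and they were not tested.

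Mitochondria keep a ribosome of their own, which translates the few mRNAs encoded by mitochondrial DNA, all of them for membrane subunits of the respiratory chain and ATP synthase. Its proteins are encoded in the nucleus, made in the cytosol and imported, while its rRNAs are transcribed in the organelle. The small subunit binds and decodes the mRNA. The large subunit forms the peptide bond and holds the exit tunnel, which faces the inner membrane. Some of its proteins have relatives in bacterial ribosomes and others occur in mitochondria only.

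The 20 rats were male Wistar Han rats, 5 in each of 4 groups. Adult rats were 3 months and aged rats 18 months old, and at each age rats were either euhydrated (EH), with free access to water, or dehydrated (DH), with the water withheld. The labels give the dehydration as 2 days and the study's methods give a longer period. The libraries were stranded poly(A) libraries from bilateral punches of the SON, and by the study's methods both ages were handled side by side, although the adult data had been published before. Reads recovered from the normalized counts summed to between 24268398 and 30348118 per rat. The summed normalized counts of Avp and Oxt, which define the magnocellular neurones, lay between 193899 and 473621 per rat, and both genes were detected in every library. A punch also holds glia and neighbouring tissue, and in bulk tissue fewer cells of a type and less RNA per cell cannot be told apart.

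Members were expressed at moderate levels. In the table of the adult rats, mean normalized counts of the tested members ran from 228 for Mrpl14 to 2606 for Mrps26. The share of all normalized counts held by the members was 0.215% ± 0.00217 in euhydrated and 0.210% ± 0.00451 in dehydrated adults (SD, n = 5 each). Their residual spread between rats of a group was small, with a median SD of 0.081 on the log2 scale in the adult DH comparison against 0.106 over all genes tested. Levels are not compared between members here, because the values are not scaled to transcript length.

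The first comparison, aged EH against adult EH, asked how these transcripts differ between the ages without dehydration. By the study, aged rats were also heavier and had a higher basal plasma osmolality. No member passed the test. Of all genes tested by limma, 5.99% had an adjusted p under 0.05, and of the members 0 of 70 did. Without adjustment, p was under 0.05 for 4 members with a higher and 2 with a lower value in aged rats, against 9.84% and 10.4% of genes in these directions (20.3% in both). From the recovered reads edgeR called 0 members, with 900 genes called in all, and DESeq2 1, with 1295 in all. The median log2 fold change (LFC) was 0.01 over the large subunit and 0.03 over the small subunit, against 0.00033 over all genes, and 40 of 70 members had an LFC above 0, against 50.1% of genes.

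The member nearest to the threshold was Mrps35, a small subunit protein found in mitochondria only. Its normalized counts in the 5 aged EH rats were 820, 870, 780, 671 and 820. In the adult EH rats they were 662, 710, 698, 651 and 667. Of the aged rats 4 lay above every adult rat and the other, replicate 5, lay within the adult range. The LFC was 0.22 (SE 0.0638) with a limma adjusted p of 0.0583, and without aged EH replicate 5 it was 0.28 with an adjusted p of 0.0111, within a range of 0.0111 to 0.133 over the alternatives. DESeq2 called it as well, as the only member.

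Mrps18b, a small subunit protein, was the only tested member whose groups did not overlap with age, where 2.95% of all genes were higher without overlap. Its normalized counts were 1244, 1092, 1080, 1107 and 1108 in aged EH rats. In adult EH rats they were 1029, 1072, 979, 998 and 1062. The lowest aged rat stood just above the highest adult rat, and the adjusted p was 0.131 by limma (LFC 0.13, SE 0.0474). The remaining members with the most extreme LFCs were Mrps22 at 0.13 and, on the lower side, Mrps24 at -0.15, Mrpl54 at -0.14 and Mrps17 at -0.12, with adjusted p-values of 0.145 to 0.328. Over the large subunit the LFCs ran from -0.14 to 0.09.

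The second comparison, adult DH against adult EH, asked how the members respond to dehydration in young rats. Of the members 5 of 70 passed the test (7.14%), against 12.7% of all 15280 genes tested. Mrps9, Mrps27 and Mrps33 fell and Mrps7 and Mrpl41 rose, against 4.99% of genes that fell and 7.67% that rose. Of the 5, 4 are among the 29 small subunit genes (13.8%) and 1 is among the 41 large subunit genes (2.44%). With columns scaled to equal totals the call also went to 5 members, all of them lower, because Mrps7 and Mrpl41 were lost and Mrpl44 and Mrpl51 were gained. The split between rising and falling members thus depends on the scaling.

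**Figure D1:**
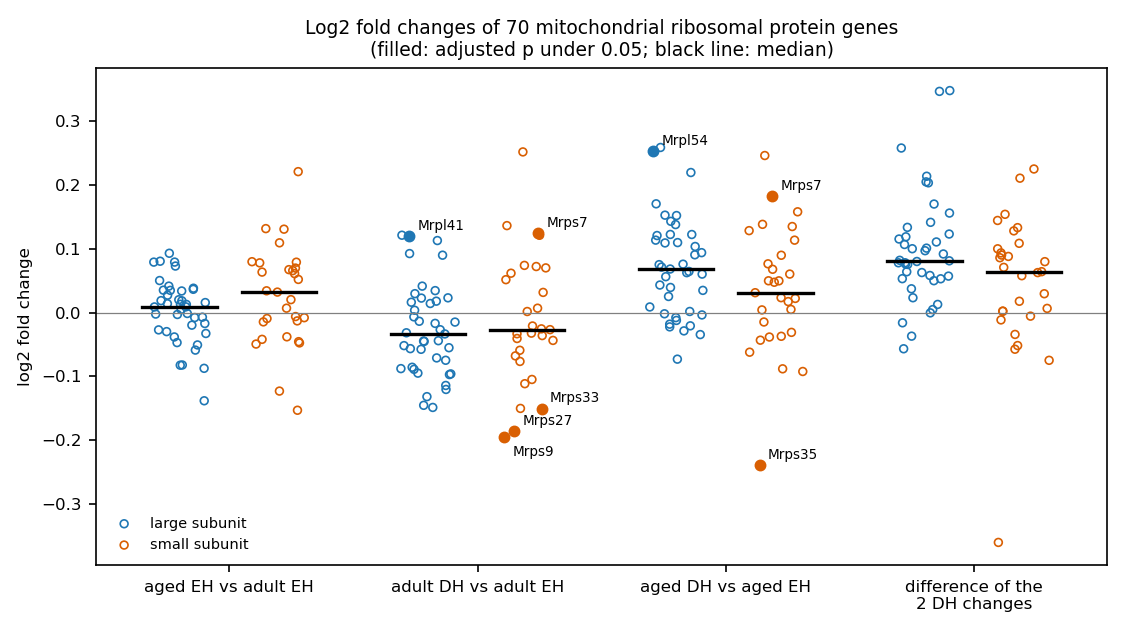
The LFC of each of the 70 tested genes (vertical axis, log2) is shown for the 3 comparisons and for the difference between both dehydration changes, with large subunit genes in blue and small subunit genes in orange. Filled points with a name had an adjusted p under 0.05, black lines are medians, and the medians lie below 0 in adult DH and above 0 in aged DH.

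Mrps9 is a small subunit protein with a bacterial relative (ENSRNOG00000016201). In adult DH rats the normalized counts were 966, 982, 990, 992 and 1006. In adult EH rats they were 1139, 1152, 1195, 1030 and 1141. Every DH rat lay below every EH rat, and the DH rats lay close together. The LFC was -0.19 (SE 0.0418) with a limma adjusted p of 0.00812, and the call stood without any single rat.

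Mrps27 is a small subunit protein with pentatricopeptide repeats, a motif known from RNA-binding proteins of organelles (ENSRNOG00000017272). The 5 DH rats had normalized counts of 879, 836, 823, 801 and 843, and the 5 EH rats 915, 1027, 952, 922 and 944. The groups did not overlap. The LFC was -0.19 (SE 0.0431, limma adjusted p = 0.0129), and this call also stood without any single rat.

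Mrps33 is a small subunit protein of mitochondria only (ENSRNOG00000026528). Its normalized counts were 755, 806, 815, 816 and 823 in adult DH rats and 911, 879, 869, 899 and 896 in adult EH rats. The groups did not overlap, and DH replicate 1 stood apart below the other DH rats. The LFC was -0.15 (SE 0.0385, limma adjusted p = 0.0211). Without adult EH replicate 1 the adjusted p was 0.0543, within a range of 0.0101 to 0.123 over the alternatives.

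Mrps7, a small subunit protein with a bacterial relative in the head of the subunit (ENSRNOG00000003797), rose. Counts were 1537, 1570, 1556, 1560 and 1524 in adult DH rats and 1366, 1460, 1437, 1463 and 1385 in adult EH rats. Every DH rat lay above every EH rat. The LFC was 0.12 (SE 0.0323, limma adjusted p = 0.0230). The call was lost without adult EH replicate 1 (adjusted p = 0.0628) and without adult DH replicate 2 (adjusted p = 0.05005, just above the threshold), with a range of 0.0142 to 0.142 over the alternatives.

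Mrpl41, a large subunit protein of mitochondria only (ENSRNOG00000029875), was the weakest of the 5. Its normalized counts were 1239, 1215, 1327, 1277 and 1310 in adult DH rats and 1149, 1165, 1179, 1193 and 1174 in adult EH rats. The groups did not overlap, although the DH rats were more spread out. The LFC was 0.12 (SE 0.0352, limma adjusted p = 0.0402). The call was lost when any single rat was left out other than adult DH replicate 1 or 2, in 8 of 10 cases, with adjusted p-values up to 0.176 over the alternatives.

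Including these 5, the groups did not overlap for 2 members in the higher and 4 in the lower direction, against 6.81% and 4.08% of all genes. The member without a call was Mrpl51 of the large subunit (LFC -0.10, adjusted p = 0.0912). The highest LFC of all members was that of Mrps10, a small subunit protein with a bacterial relative, at 0.25 (SE 0.132, adjusted p = 0.244). Its normalized counts were 533, 636, 471, 467 and 604 in DH and 473, 427, 374, 392 and 636 in EH rats, so the highest EH rat lay as high as the highest DH rat. Mrps26 had an LFC of 0.14 (adjusted p = 0.0668). Over the subunits the median LFC was -0.03 for the large and -0.03 for the small subunit, against -0.01 over all genes. With a rat left out it ran from -0.0497 to -0.0133 (without adult DH replicate 1) for the large and from -0.0427 to -0.0112 (without adult EH replicate 4) for the small subunit. An LFC above 0 was found in 26 of 70 members (37.1%, against 47.8% of genes). Without adjustment, p was under 0.05 for 5 members with a higher and 8 with a lower value, against 14.1% and 12.8% of genes (26.9% in both directions).

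**Figure D2:**
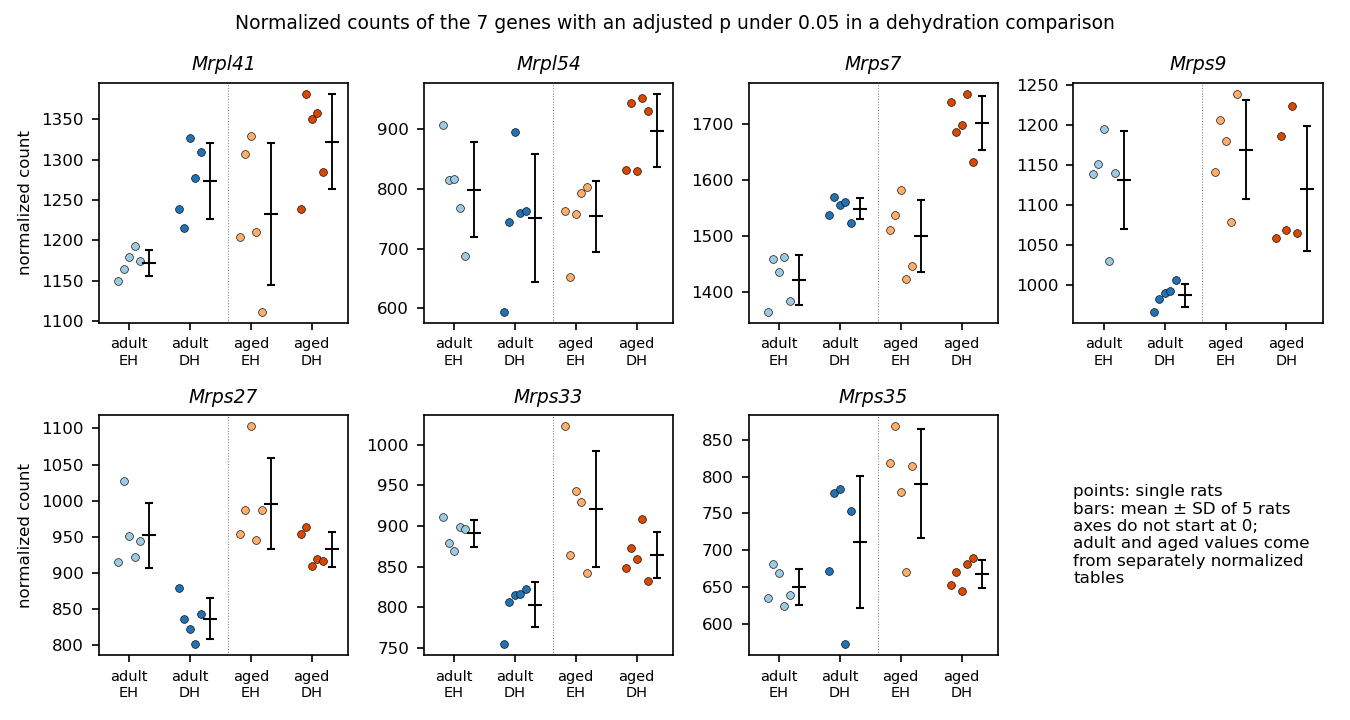
Normalized counts (vertical axes, not starting at 0) of the 7 genes that passed the test in a dehydration comparison are shown for single rats, with bars for the mean ± SD of 5 rats, and adult and aged values come from separately normalized tables. Mrps7 separates DH from EH at both ages, Mrps9 in the adult rats, and in Mrps35 the aged EH rats stand high except for the rat at 671.

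The third comparison, aged DH against aged EH, put the same question to old rats. Of the members 3 of 70 passed (4.29%), against 7.29% of all 15346 genes tested. Mrps7 and Mrpl54 rose and Mrps35 fell, against 4.05% of genes that rose and 3.25% that fell. DESeq2 on the recovered reads called more genes in all, 1534 against 1119 by limma. Of the members it called 6, the same 3 and Mrpl13, Mrpl50 and Mrps18a with higher values in DH. Without adjustment, p was under 0.05 for 15 members with a higher and 1 with a lower value, against 11.3% and 10.1% of genes (21.4% in both directions).

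Mrps7 was the only member to pass in both dehydration comparisons. In aged DH rats its normalized counts were 1740, 1686, 1697, 1753 and 1631. In aged EH rats they were 1510, 1538, 1582, 1425 and 1447. As in the adult rats, every DH rat lay above every EH rat. The LFC was 0.18 (SE 0.0398, limma adjusted p = 0.0127), and the adjusted p stayed between 0.00112 and 0.0454 over all 21 alternatives, each rat left out in turn included.

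Mrpl54, a large subunit protein of mitochondria only (ENSRNOG00000020464), had normalized counts of 832, 944, 830, 953 and 930 in aged DH rats. In aged EH rats they were 763, 653, 758, 794 and 803. The groups did not overlap, with the lowest DH rat just above the highest EH rat. The LFC was 0.25 (SE 0.0645, limma adjusted p = 0.0298). The call was lost without aged EH replicate 1 or 2 and without aged DH replicate 2, 5 or 6, with adjusted p-values up to 0.0824. RefSeq lists 1 pseudogene of Mrpl54, and reads shared with it could not be told apart.

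Mrps35 (ENSRNOG00000001842), the member that had stood highest with age, was lower in aged DH rats. Its normalized counts there were 652, 670, 644, 681 and 690. In aged EH rats they were 819, 869, 780, 671 and 814. Aged EH replicate 5 lay among the DH rats and the other EH rats lay above them. The LFC was -0.24 (SE 0.0630, limma adjusted p = 0.0345), and the call was lost when any single rat was left out other than aged EH replicate 5 or aged DH replicate 6, in 8 of 10 cases, with adjusted p-values up to 0.129. The aged EH rats are the same animals as in the comparison by age.

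The groups of aged rats did not overlap for 5 members, all higher in DH, against 4.12% of genes in that direction. Beside Mrps7 and Mrpl54 these were Mrpl13 (LFC 0.14, adjusted p = 0.0522), Mrps18a (LFC 0.16, adjusted p = 0.0601) and Mrpl27, a protein at the peptide-bond-forming centre (LFC 0.11, adjusted p = 0.161). Mrpl50 of the large subunit had the highest LFC at 0.26 (SE 0.0781, adjusted p = 0.0616), with normalized counts of 415, 477, 460, 478 and 448 in DH and 430, 341, 393, 335 and 410 in EH rats. Its lowest DH rat lay below the highest EH rat. Mrps10 had an LFC of 0.25 (adjusted p = 0.206), and after Mrps35 the lowest LFCs were those of Mrps27 at -0.09 and Mrps33 at -0.09, neither of which passed (adjusted p = 0.293 and 0.389).

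Of the 70 members 51 had an LFC above 0 in aged DH (72.9%), where 49% of all genes did. The median LFC was 0.07 over the large and 0.03 over the small subunit, against -0.003 over all genes, and it kept its sign under every alternative, between 0.05 and 0.08 for the large and 0.02 and 0.05 for the small subunit. Of the large subunit 31 of 41 and of the small subunit 20 of 29 members lay above 0.

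In the same aged rats the markers of cortical glutamatergic neurones moved with dehydration. Their summed normalized counts were 684 to 1422 in aged DH and 1526 to 3944 in aged EH rats, without overlap, and 3 of the 4 markers, Slc17a7, Neurod6 and Neurod2 but not Tbr1, were called lower. None of the 4 was called in the adult comparison, where the sums were 784 to 2239 in DH and 739 to 2964 in EH rats. Summed blood markers overlapped, at 6755 to 16474 in DH against 11189 to 23499 in EH adults and 7518 to 14247 against 9645 to 23688 in aged rats, and 1 of 5 was called lower at each age. Of 6 oligodendrocyte markers 1 was called lower in adult DH, with a median LFC of -0.17 and 1 of 6 above 0, and 1 was called higher in aged DH, with a median of 0.12 and 6 of 6 above 0. The aged less the adult change was above 0 for 6 of 6, with a median of 0.30 and 0 called. Their summed counts were 241590 to 309009 in DH against 252853 to 371166 in EH adults and 258285 to 307511 against 235216 to 285387 in aged rats, with overlap at both ages. With age, 4 of these 6 were called lower, and 3 of 6 microglial markers higher. Of all genes, 5.99% were called in either direction with age, 12.7% in adult DH and 7.29% in aged DH. Of 3 tested meningeal markers 2 were called lower with age, with a median LFC of -0.77 and 0 of 3 above 0. The summed counts of the meningeal markers were 1643 to 3116 in aged EH and 4290 to 4729 in adult EH rats, without overlap. With age 1 of 6 astrocyte markers was called lower, with a median LFC of 0.015 and 3 of 6 above 0. Their summed counts overlapped, at 176488 to 208818 in aged EH and 172889 to 204791 in adult EH rats. Of 4 endothelial markers 1 was called lower, with a median LFC of -0.11 and 1 of 4 above 0. With dehydration 1 of 2 magnocellular markers was called higher in adult and 0 in aged rats (median LFCs 0.33 and 0.18). Of 5 neuronal markers 1 was called lower in adult DH (2 of 5 above 0) and 0 in aged DH (0 of 5 above 0). Of 6 astrocyte markers 0 were called in adult DH and 1 higher in aged DH, where 3 of 6 lay above 0. No microglial, endothelial or meningeal marker was called in either dehydration comparison. The part of these cells and tissues in the values of the members was not tested.

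Levels averaged over each subunit were computed for every rat as the mean of log2(normalized count + 1). In adult rats the large subunit averaged 9.43 ± 0.0251 in DH and 9.46 ± 0.0270 in EH, and the small subunit 9.55 ± 0.0245 and 9.56 ± 0.0186 (SD, n = 5 each), with overlap in both. In aged rats the large subunit averaged 9.59 ± 0.0308 in DH and 9.52 ± 0.0353 in EH, and the small subunit 9.68 ± 0.0344 and 9.65 ± 0.0283 (SD, n = 5 each), again with overlap in both.

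The difference of the subunits within a rat, large less small, does not depend on the scaling between libraries apart from the pseudocount. It was -0.121 ± 0.0165 in adult DH and -0.106 ± 0.0218 in adult EH rats, which overlapped. In aged rats it was -0.0921 ± 0.0115 in DH, from -0.103 to -0.0791, and -0.129 ± 0.0178 in EH, from -0.160 to -0.114 (SD, n = 5 each). The aged groups did not overlap on this difference, and they did not when Mrps30 and Mrps18a were counted in the large subunit, where the proteins sit, and Mrps36 was left out. Without the 7 members that passed a test they did overlap, with -0.0700 to -0.0445 in DH and -0.120 to -0.0478 in EH rats. Since the members were chosen with results of these data known, no test is given for a score over them.

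**Figure D3:**
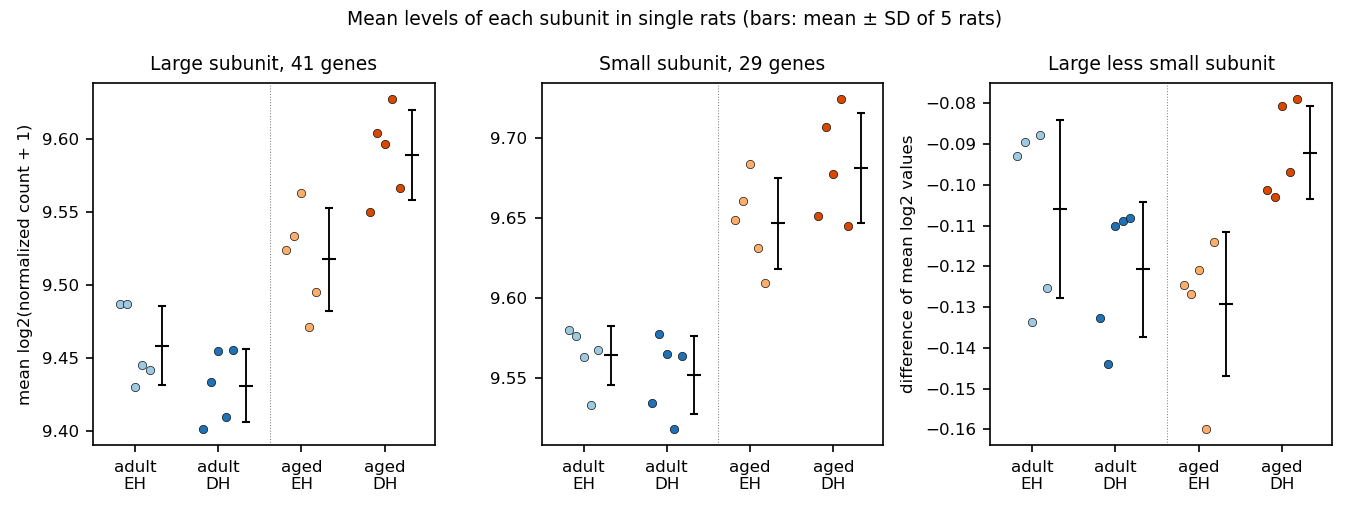
Each point is the mean log2(normalized count + 1) of a rat over the 41 large (left) or 29 small subunit genes (centre), or the large less the small mean (right), with bars for the mean ± SD of 5 rats. Adult and aged values come from separate tables, and in the right panel the aged DH rats, from -0.103 to -0.0791, lie above all aged EH rats. Without the 7 members that passed a test (not drawn) the aged groups overlapped on this difference.

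Whether the response to dehydration differed with age was tested for each gene over all 20 rats, as the aged less the adult change. No member passed, and neither did any other gene (0% of 15326 tested by limma). Without adjustment, p was under 0.05 for 9 members with a higher and 1 with a lower aged change, against 4.86% and 5.07% of genes (9.93% in both directions). From the recovered reads, the members called were 0 by edgeR and 0 by DESeq2, which called 55 genes in all. Thus no member is shown to respond differently at the 2 ages, Mrps9, Mrps27, Mrps33, Mrps7 and Mrpl41 included, whose adjusted p-values lay between 0.539 and 0.958.

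The largest differences between the ages were those of Mrps35 at -0.36 (SE 0.104, adjusted p = 0.258), Mrpl54 at 0.35 (SE 0.122, adjusted p = 0.347) and Mrpl50 at 0.35 (SE 0.138, adjusted p = 0.415). Mrpl2, a large subunit protein with a bacterial relative at the core of the subunit, followed at 0.26 (SE 0.0807, adjusted p = 0.294). After Mrps35 the lowest values were -0.07 for Mrps31 and -0.06 for Mrps22. For 59 of 70 members the difference was above 0 (84.3%), against 49.5% of all genes, with 37 of 41 in the large and 22 of 29 in the small subunit. The median difference was 0.08 for the large and 0.06 for the small subunit.

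Side by side, the LFCs of adult DH and aged DH, which share no rats, had the same sign for 39 of 70 members (55.7%), against 66.5% of the 15159 genes tested in both. In 28 members the LFC was below 0 in adult and above 0 in aged DH, and in 3 members it was the other way round. Mrps9, Mrps27 and Mrps33, which fell in adult rats, had LFCs of -0.06, -0.09 and -0.09 in aged rats, and Mrpl41 had 0.10. Mrpl54 had -0.09 and Mrps35 had 0.12 in adult rats, opposite to their aged values, and neither passed there (adjusted p = 0.572 and 0.345). Across the 70 members Pearson's r was 0.34 and Spearman's rho 0.39, as a description across genes that share their libraries, with r = 0.49 over all genes.

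**Figure D4:**
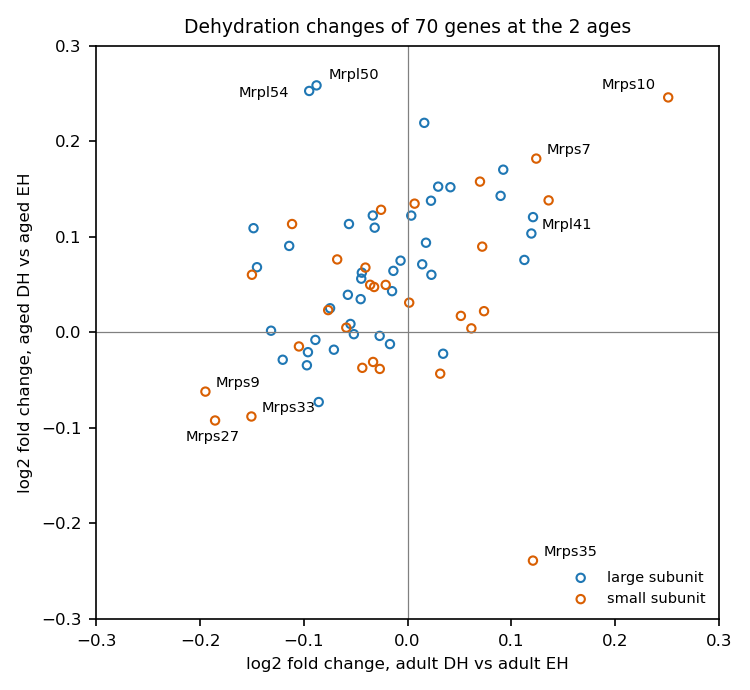
Each circle is a tested gene with its LFC in adult DH (horizontal axis) and in aged DH (vertical axis), large subunit in blue and small subunit in orange. Most circles lie above the horizontal zero line, with 28 of them in the upper left and 3, Mrps35 among them, in the lower right.

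Members with particular roles or places did not pass the test in either dehydration comparison. Mrpl12, which also binds the mitochondrial RNA polymerase, had LFCs of -0.01 in adult and 0.06 in aged DH. Mrpl58, a peptidyl-tRNA hydrolase that releases stalled chains, had 0.03 and 0.15, Mrpl45, near the inner membrane at the tunnel exit, had -0.07 and -0.02, and Mrps12, part of the decoding centre, had -0.07 and 0.08. Mrpl44, which resembles a ribonuclease III, had -0.13 (adjusted p = 0.0859) and 0.0017, and it passed in adult DH with equal column totals (LFC -0.16, adjusted p = 0.0445). Mrps30 and Mrps18a, large subunit proteins in spite of their names, had -0.03 and 0.07 in adult and 0.05 and 0.16 in aged DH. Mrps36, now known as a subunit of the 2-oxoglutarate dehydrogenase complex, had -0.03 and -0.04. The adjusted p-values of these 8 genes in both comparisons lay between 0.0601 and 0.990 by limma.

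Outside the rule were 3 symbols written in lower case, mrpl9, mrpl11 and mrpl24, which name large subunit proteins. In adult DH their LFCs were -0.16, -0.14 and -0.18, and mrpl9 fell (846 ± 29 in DH against 944 ± 27 in EH, SD, n = 5, limma adjusted p = 0.0182). The call of mrpl9 stood without any single rat, with limma adjusted p-values up to 0.107 over the alternatives. In aged DH the 3 LFCs were -0.05, 0.02 and 0.08, and none passed. Of 4 mitochondrial ribosome proteins with other symbols, Dap3, Ptcd3, Chchd1 and Gadd45gip1, none passed in any comparison.

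Genes for the proteins that build and serve this ribosome were counted in the same way. Of 23 tested assembly factors and rRNA enzymes, 1 (4.35%) passed in each of the ageing and the adult DH comparison, against 5.99% and 12.7% of all genes, and 0 in aged DH. Tfb1m, which methylates the rRNA of the small subunit, rose with age (464 ± 16.3 against 391 ± 15.7, SD, n = 5, LFC 0.25, limma adjusted p = 0.0162). Eral1, which binds the same rRNA, fell in adult DH (498 ± 16.1 against 558 ± 29.1, SD, n = 5, LFC -0.16, limma adjusted p = 0.0469), but that call held only without adult EH replicate 5 or 6 and was lost without any other single rat, with adjusted p-values up to 0.116. Of 16 translation factors 0 passed in any comparison.

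Of 19 tested genes that charge mitochondrial tRNAs, 3 fell in adult DH (15.8%, against 12.7% of all genes called in either direction and 4.99% lower) and 0 passed in aged DH or with age. They were Vars2, which charges the tRNA for valine (LFC -0.25, adjusted p = 0.0134), and Qrsl1 and Gatb, subunits of the enzyme that makes glutaminyl-tRNA (LFCs -0.27 and -0.21, adjusted p = 0.0251 and 0.0334, all by limma). Vars2 kept its call without any single rat. Qrsl1 lost it without adult EH replicate 2 or 5 or adult DH replicate 3 or 5 (up to 0.0567), and Gatb without adult EH replicate 1, 4 or 6 or adult DH replicate 2, 4 or 5 (up to 0.0776). Of 18 genes for the expression of mitochondrial DNA and for biogenesis, Mterf2, of the termination factor family, fell in adult DH (162 ± 15.6 against 212 ± 12.1, SD, n = 5, LFC -0.39, limma adjusted p = 0.00812), as 1 of 18 (5.56%), and 0 passed elsewhere. Mterf2 kept its call without any single rat, with limma adjusted p-values up to 0.0568 over the alternatives. None of the 4 lists had a member that passed in the difference between the ages.

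The subunits of the respiratory chain that work beside its products and the proteins of the cytosolic ribosome were tabulated in the same way. Of 78 tested nuclear genes of oxidative phosphorylation, 13 rose and 0 fell in aged DH (median LFC 0.10), where 4.05% of all genes rose and 3.25% fell. In adult DH 2 rose and 3 fell, with a median of -0.01, where 7.67% of all genes rose and 4.99% fell. Of 70 tested cytosolic ribosomal protein genes, 35 fell and 0 rose in adult DH, with a median LFC of -0.13, and 0 passed in aged DH (median -0.01). The count of 13 was 5 without aged EH replicate 5, 6 without aged DH replicate 2, 3 or 5, and between 8 and 14 without any other rat, all higher. By DESeq2, which called 1534 genes in all, the count was 22. That of 35 was 25 to 34. The count of 5 was 3 without adult EH replicate 1, 2 or 4. The count of 0 cytosolic genes in aged DH was 1 without aged EH replicate 1 or aged DH replicate 3 or 6, and DESeq2 called 2 there. With age 0 of either list passed. The difference between the ages was above 0 for 94.9% of the oxidative phosphorylation genes and 94.3% of the cytosolic ribosomal protein genes. It was above 0 for 84.3% of the mitochondrial ribosomal ones and 49.5% of all genes, and no gene passed the limma test of this difference.

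Promoters were read from RefSeq (GRCr8), 250 bases before and 50 bases after the gene start, and 56 of the 70 tested members had an entry. The letters CCGGAAG, the core of sites of the ETS family, occurred on either strand in 18 of the 56 (32.1%) and in 11.2% of 19005 protein-coding promoters. AAGATGGCG, known from YY1, occurred in 8 (14.3%, against 2.29%), and the NRF1 palindrome, which is GC followed by the core GCATGCGC, in 4 (7.14%, against 1.14%). The NRF1 core GCATGCGC alone, which the palindrome contains, was in 5 (8.93%, against 3.23%). CACGTG was in 4 (7.14%, against 7.27%) and TGACGTCA in 1 (1.79%, against 2.22%). In the large and small subunit CCGGAAG was in 30.3% of 33 and 34.8% of 23 promoters, and 27 of the 56 held none of these letters. A match is a description of the sequence, not a bound site.

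The 4 members with the palindrome are shown because NRF1 is the factor best known from nuclear genes for mitochondrial proteins. None of them passed the limma test in any comparison. The 30 bases around the palindrome, in capitals, read 5′ to 3′ as follows.
Mrpl17 (chr1:169575735-169575764, minus strand): aggctctgatGCGCATGCGCaagcacccct
Mrpl32 (chr17:55260579-55260608, plus strand): tttgacctgtGCGCATGCGCagggaacctg
Mrpl44 (chr9:88554908-88554937, plus strand): agaagcacttGCGCATGCGCactatgctag
Mrps18b (chr20:2842976-2843005, plus strand): tccttgtccgGCGCATGCGCagtcgttctt

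For 6 of the 7 members that passed in a dehydration comparison, the 100 bases just before the gene start are given, 5′ to 3′, with matches to any of these letters in capitals. Mrps35 had no entry.
Mrps9 (chr9:52605578-52605677, plus strand): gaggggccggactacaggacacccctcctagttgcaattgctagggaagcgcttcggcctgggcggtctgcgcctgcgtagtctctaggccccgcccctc
Mrps27 (chr2:32474104-32474203, plus strand): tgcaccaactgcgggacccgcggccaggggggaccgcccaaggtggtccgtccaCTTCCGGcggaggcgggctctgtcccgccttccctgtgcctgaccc
Mrps33 (chr4:69566939-69567038, minus strand): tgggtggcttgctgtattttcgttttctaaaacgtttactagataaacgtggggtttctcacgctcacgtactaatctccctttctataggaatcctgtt
Mrps7 (chr10:101342542-101342641, plus strand): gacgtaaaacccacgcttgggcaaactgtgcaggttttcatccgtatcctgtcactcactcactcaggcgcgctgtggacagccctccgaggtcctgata
Mrpl41 (chr3:28179756-28179855, minus strand): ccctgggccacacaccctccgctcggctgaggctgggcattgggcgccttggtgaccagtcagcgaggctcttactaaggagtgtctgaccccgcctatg
Mrpl54 (chr7:9103425-9103524, plus strand): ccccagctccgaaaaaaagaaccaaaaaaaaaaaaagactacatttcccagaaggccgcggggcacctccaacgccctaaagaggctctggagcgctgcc
Among these stretches, that of Mrps27 holds the ETS letters on the reverse strand. The whole window of Mrps27 also holds the YY1 letters once and that of Mrpl54 holds CACGTG once, both outside the bases shown. The windows of Mrps9, Mrps33, Mrps7 and Mrpl41 held none of the letters searched.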

How the data were processed

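The data were 20 RNA-seq libraries of rat SON, deposited as a table of normalized counts for each of 3 comparisons, with 30 per-sample columns in all. The authors trimmed the reads, aligned them with STAR to Rn6, took gene counts with featureCounts and scaled them, within each table, by the size factors of DESeq2. The strand setting of the counting is not given in the sources used here. As deposited, each value is thus a size-factor-scaled signal of a gene. In each column 100% of the non-zero values came within 0.1 read of a whole read number, so reads were recovered. The deposited fold changes and p-values were not used.

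Here log2(normalized count + 1) was tested with limma 3.58.1 (R 4.3.3, moderation with a mean trend, two-sided, Benjamini-Hochberg over all genes with a mean of at least 10, threshold 0.05). Aged less adult change was tested over all 20 rats, each value from the dehydration table of its age. edgeR 4.0.16 and DESeq2 1.42.0 on recovered reads, other pseudocounts, filters, scalings, a replicate block and leaving out each rat were alternatives. Those for subunit medians on recovered reads, and edgeR and DESeq2 for the difference between ages, were chosen after seeing the data. So were the alternatives for the counts of oxidative phosphorylation and cytosolic ribosomal protein genes. Tests were tried on simulated data. P-values measure the spread between rats. By the study's methods rats shared cages and whole cages were assigned to EH or DH. The labels do not name the cage, so it could not be taken into account. Samples were grouped by their labels.

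The members and lists were chosen with earlier results of these data known. Named are members that passed a test, the 3 highest and 3 lowest LFCs per comparison, members with a known special role or place, untested members, non-overlapping members, and genes of the smaller lists that passed. Naming by count per coding length was not possible without lengths. Genes encoded by mitochondrial DNA were not analysed here, since 0 of the listed symbols matched. RefSeq (GRCr8) lists 40 pseudogenes for 23 member symbols, and shared reads make those members less certain. Figures were drawn with matplotlib 3.10.9. A marker gene of a neighbouring tissue is not reported here and was left out of its list.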

Additional observations from a re-analysis of the deposited data

Results flagged for a closer look

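In 54 groups of 5 rats, covering the 7 members that passed a test and the mean of each subunit, 2 values stood apart from the other rats of their group by more than Dixon's limit of 0.71 for the gap over the range. Chance marks about 1 group in 20, and the 54 groups are not independent, since each EH group enters 2 comparisons. The normalized count of Mrps33 was 754.6 in adult DH replicate 1, below the other adult DH rats at 806 to 823 (gap over range 0.757). That of Mrps27 was 1103 in aged EH replicate 4, above the other aged EH rats at 945 to 988 (gap over range 0.732). Mrps33 fell in adult DH with or without that rat.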

How the results depend on the processing

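The number of members called stayed at 0 in the difference between the ages under all 32 alternatives. With age it was 1, Mrps35, when values were centred on the median gene, with the replicate block and by DESeq2, and 0 to 1 with a rat left out (1 without aged EH replicate 5). In adult DH it was 1 with the replicate block, Mrps10 (LFC 0.42, adjusted p = 0.0256), so that none of the 5 kept its call there, 6 by DESeq2, Mrps26 included (adjusted p = 0.0378), and 2 to 6 with a rat left out (2 without adult EH replicate 1, Mrps9 and Mrps27). In aged DH it was 1 with the replicate block, Mrps7, 6 by DESeq2, and 1 to 3 with a rat left out (1 without aged EH replicate 2 or aged DH replicate 2 or 5). The replicate block took the 13 oxidative phosphorylation genes of aged DH to 2, and the calls over all genes to 824, 987 and 653, from 921, 1934 and 1119, in ageing, adult DH and aged DH. By DESeq2 the calls over all genes were 1295, 2243 and 1534 in these comparisons. With the replicate block mrpl9 (limma adjusted p = 0.107) and Mterf2 (limma adjusted p = 0.0568) lost their adult DH calls. So did Eral1, Qrsl1 and Gatb, while Vars2 in adult DH and Tfb1m with age kept theirs. Same-numbered rats correlated at -0.0825 to 0.162 and not every rat correlated best with its own number. A pairing by number is thus not shown, and such correlations over all genes cannot exclude one. With equal column totals the median LFC was 0.00211 for the small subunit with age, and -0.0597 for the large and -0.0530 for the small subunit in adult DH. With a rat left out the median of the small subunit with age was 0.00426 to 0.0441. Near 0 the sign was not fixed. With a rat left out, the adult DH values were -0.0410 to 0.0113 for Mrpl12 and -0.0777 to 0.0530 for Mrps36, and the aged DH values -0.00756 to 0.0424 for mrpl11 and -0.0231 to 0.0254 for Mrpl44, which was -0.0138 with equal column totals and -0.00355 by edgeR. No other fold change given for a gene that passed, stood at an end of the range or had a named role turned its sign. The median of the large subunit with age was -0.0209 with equal column totals. At 5 rats a group, the smallest member difference called had an LFC of 0.12, and smaller differences may have been missed. The causes were not tested.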
